A study of Mus musculus with 62 samples.

Results

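The genes described here are 10 genes of extracellular matrix turnover in the mouse heart: the matrix metalloproteinases Mmp2, Mmp3 and Mmp14, the ADAMTS proteases Adamts1, Adamts4 and Adamts9, and the tissue inhibitors of metalloproteinases Timp1, Timp2, Timp3 and Timp4. They were taken by symbol, 10 of 47643 gene symbols in the deposited expression table. Hearts came from female mice that were 2 months old, and fall into 3 arms: CAC mice were injected with cachectic melanoma cells, NCAC mice with non-cachectic melanoma cells, and Con mice were mock injected. Cachexia, the wasting of muscle and fat seen with some tumours, is what the names of the arms refer to. Each arm was sampled at 2, 4, 6 and 8 weeks, which makes 12 groups. The labels give the strain as C57BL6/J, while the series' design text names NCI Ath/nude mice, which lack a thymus and so most T cells. CAC and NCAC animals carried different melanoma cells, so the wasting and the injected cells cannot be told apart. Of 62 libraries, Con week 4 replicate 2 was left out, and 61 were used: 7 in CAC at week 8, 4 in Con at week 4 and 5 in each other group. The labels call them biological replicates.

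Matrix metalloproteinases are zinc enzymes that cleave collagens, proteoglycans and other matrix proteins outside the cell. The 4 TIMP proteins bind their active sites and block them, and TIMP3 also blocks several ADAMTS enzymes. In the heart the balance of proteases and inhibitors accompanies remodelling after injury, overload and inflammation, and much of it is made by fibroblasts, vascular cells and macrophages. MMP14 sits in the cell membrane and, with TIMP2 as a bridge, activates the secreted MMP2, while MMP3 (stromelysin) activates other proenzymes.

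Values are TPM, the share of each library's transcripts that a gene holds after correction for transcript length, so levels of different genes can be set side by side. Read depth is not given in the sources used here. Differences between groups are given as differences of mean log2(TPM + 1), which understate the change of genes near 1 TPM. A gene is said to have risen or fallen, or to be called, where the limma adjusted p was below 0.05 among the 12541 genes tested, those that reached 1 TPM in 5 or more libraries. Heart markers were high in all 61 libraries, with 3419 to 8033 TPM of Myh6, a cardiac myosin heavy chain. At week 8 the share of TPM from the mitochondrial genome was 50.1 to 55.7% in CAC and 52.9 to 61.1% in Con. The median log2 difference over all genes tested in CAC against Con was 0.21 at week 6 and 0.19 at week 8, and about 0 after rescaling by the median of ratios. In whole-tissue RNA, more cells of a type and more RNA per cell cannot be told apart.

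The promoters of Mmp3 and Timp1, the 2 genes with the largest differences of mean log2(TPM + 1) at week 8, are printed with that of Adamts9, which did not rise in any comparison. Each run is the 250 bases before the gene's start in RefSeq (GRCm38.p6), read 5′ to 3′ on the gene's strand, with capitals marking matches to the motifs searched.
Mmp3 (chr9:7445572-7445821, plus strand): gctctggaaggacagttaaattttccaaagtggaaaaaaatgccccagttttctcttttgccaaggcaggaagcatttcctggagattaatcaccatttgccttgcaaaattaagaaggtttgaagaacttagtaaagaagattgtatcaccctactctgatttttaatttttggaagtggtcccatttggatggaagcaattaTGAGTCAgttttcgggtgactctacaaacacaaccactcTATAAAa
Timp1 (chrX:20869916-20870165, plus strand): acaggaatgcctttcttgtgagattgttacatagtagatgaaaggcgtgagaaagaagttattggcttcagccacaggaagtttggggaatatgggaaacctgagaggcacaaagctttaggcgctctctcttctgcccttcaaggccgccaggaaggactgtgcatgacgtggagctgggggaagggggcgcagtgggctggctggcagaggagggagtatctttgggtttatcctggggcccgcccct
Adamts9 (chr6:92943535-92943784, minus strand): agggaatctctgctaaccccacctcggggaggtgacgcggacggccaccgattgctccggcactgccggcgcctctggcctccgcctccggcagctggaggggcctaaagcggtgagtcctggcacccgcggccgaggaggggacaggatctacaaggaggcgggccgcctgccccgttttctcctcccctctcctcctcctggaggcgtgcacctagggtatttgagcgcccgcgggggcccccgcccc

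Short motifs were searched in the 8 members that the RefSeq table holds, all but Mmp2 and Adamts4. Mmp3 had the AP-1 motif TGAGTCA at 46 to 40 bases before its start and the letters of the TATA motif, TATAAA, at 7 to 2 bases before it, counting the base next to the start as 1. Whether these letters act as a TATA box was not tested. Adamts1 had the TATA motif at 32 to 27 bases before its start. No other member held any of the motifs, which says only that these letters are not in these windows. Among 32851 promoters of the same length, AP-1 (TGA and TCA with any base between them, both strands) was in 6.75%, STAT (TTCNNNGAA, both strands) in 7.02%, NF-kB (both strands) in 4.11%, CRE (TGACGTCA, both strands) in 1.55% and the TATA motif as spelled above (gene strand) in 7.59%. A match is a description of the sequence and shows no binding.

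Most of the 10 genes, proteases and inhibitors alike, were higher in CAC hearts at week 8. In CAC against Con at week 8, 9 of the 10 genes rose and 0 fell, where 50.8% of all genes tested were called higher and 60.8% were called in either direction. At week 6, 8 rose and 0 fell (55.8% of all genes were called, 50.5% higher). The week 6 calls leave out Timp3 and Adamts9. At week 4, 2 rose, Mmp3 and Adamts1 (15.0% of all genes called, 12.7% higher), and at week 2 none of the 10 passed (1.84% of all genes called). At week 2, 0 members and 2737 of the 12541 genes tested had an unadjusted p below 0.05. The median log2 difference of the 10 genes was 0.93 at week 8, beside 0.19 for all genes tested. Adamts4 passed the filter on low values through CAC libraries alone, since it reached 1 TPM in 6 of the 12 CAC libraries of weeks 6 and 8 and in 0 of the 49 others. Without it, 8 of 9 genes rose at week 8 and 7 of 9 at week 6. The counts depend on the scaling. After median-of-ratios rescaling, 9 members rose and 1, Adamts9, fell at week 8, where 25.9% of all genes were called higher and 25.8% lower. At week 6, 6 rose and 1, again Adamts9, fell (19.4% of all genes higher and 17.9% lower), and at week 4 these counts were 2 and 1 (8.52% and 6.87%).

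Against NCAC, which shares the CAC libraries of the comparison above, 9 of 10 genes rose and 0 fell at week 8 (66.1% of all genes were called and 57.4% were called higher). At week 6, 7 rose and 1, Adamts9, fell (54.5% called, 47.7% higher and 6.85% lower). At week 4 Mmp3 and Timp1 rose (16.5% called, 13.7% higher), and at week 2 no member passed (0.590% called). At week 2, 2 members and 1789 of the 12541 genes tested had an unadjusted p below 0.05. Without Adamts4, 8 of 9 genes rose at week 8 and 6 of 9 at week 6. After rescaling, 8 of 10 rose and 0 fell at week 8 (25.2% of all genes higher and 26.1% lower), while at week 6 the counts were 6 and 1 (20.7% and 19.9%). In NCAC against Con, 0 of 10 members were called by limma at any week. There, 2 members were below an unadjusted p of 0.05 at week 2, 0 at weeks 4 and 6, and 1 at week 8. Of the 12541 genes tested, 1003, 103, 213 and 1942 were below it at weeks 2, 4, 6 and 8. Of all genes, 0% were called in that comparison at weeks 2, 4 and 6 and 0.710% at week 8.

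**Figure D1:**
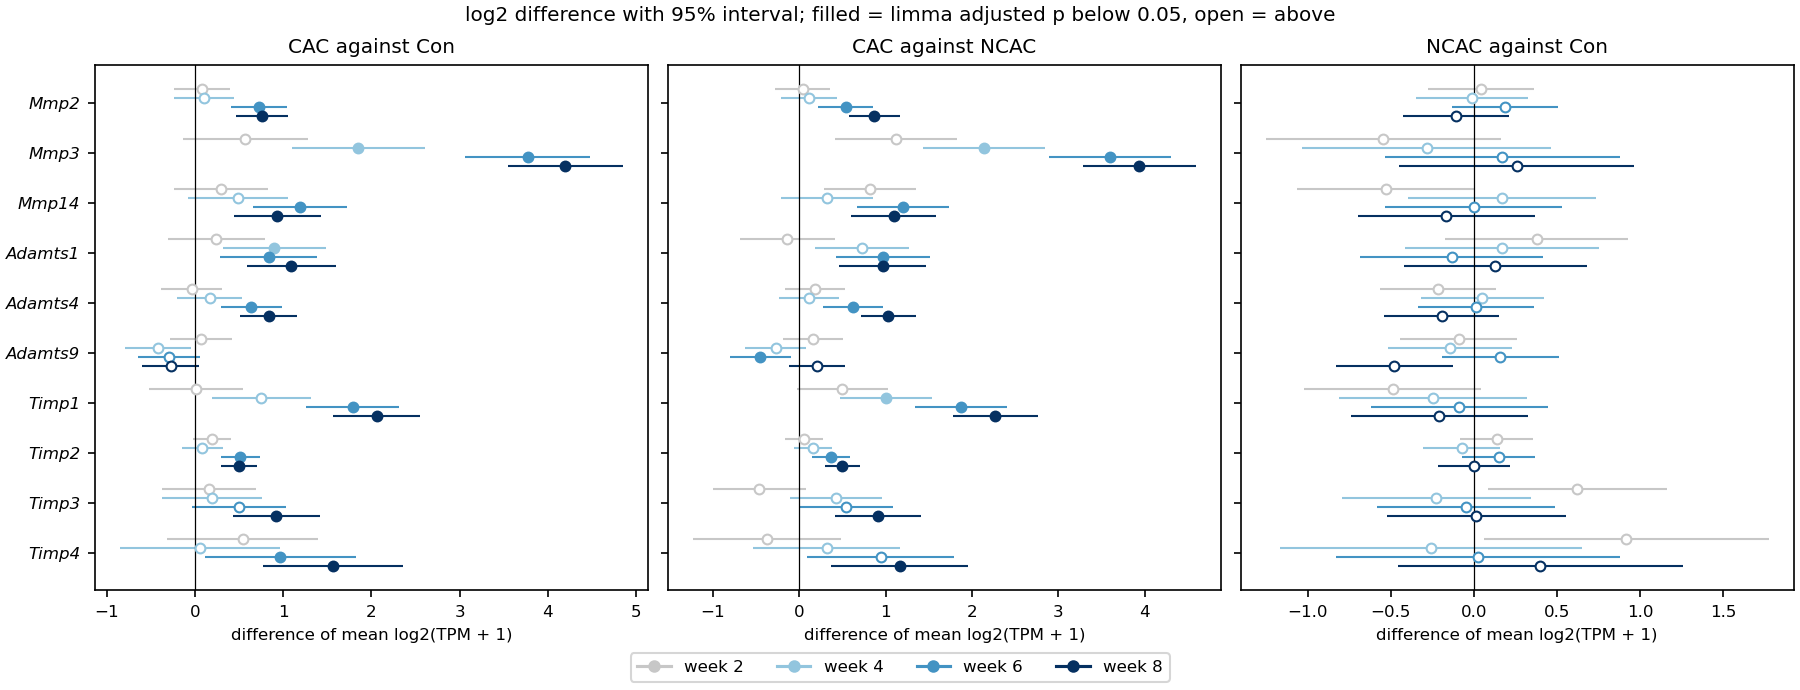
Differences of mean log2(TPM + 1) for the 10 genes in CAC against Con, CAC against NCAC and NCAC against Con, at weeks 2 to 8 (colours), with 95% intervals; filled points passed the limma adjusted p of 0.05 and open points did not. Mmp3 and Timp1 moved furthest right with the weeks in both CAC panels, while every point of the NCAC against Con panel is open.

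Mmp3, which cleaves proteoglycans and activates other proenzymes, had the largest rise of the 10 genes (chromosome 9, 7445822 to 7455975, plus strand, GRCm38, GENCODE M21). At week 8 it had a lowest of 5.42, a median of 43.9 and a highest of 53.5 TPM in the 7 CAC libraries. The Con libraries had 0.224, 1.40, 0.973, 0.734 and 1.48 TPM, and the NCAC libraries 0.898, 1.67, 1.99, 0.824 and 1.22 TPM. All 7 CAC libraries lay above all Con and NCAC libraries, and 1 of them, replicate 3, was far below the other 6. The CAC mean was 39.7 ± 15.6 TPM (SD, n = 7) and the Con mean 0.962 ± 0.514 TPM (SD, n = 5), a ratio of 41.3 and a log2 difference of 4.20 (SE 0.33, limma adjusted p = 4.01e-15). The log2 difference was 4.61 without replicate 3.

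Earlier, the same gene stood at 22.2, 28.2, 28.6, 32.7 and 10.8 TPM in CAC at week 6 and at 1.89, 1.02, 0.508, 0.169 and 0.637 TPM in Con. The groups were fully apart, and the log2 difference was 3.77 (SE 0.35, limma adjusted p = 2.82e-12). At week 4 the CAC libraries had 2.95, 8.26, 5.11, 11.6 and 5.39 TPM and the Con libraries 1.22, 0.202, 1.22 and 1.5 TPM, again fully apart, with a difference of 1.85 (SE 0.37, limma adjusted p = 4.65e-04). At week 2 the CAC libraries had 0.911, 1.63, 5.01, 2.71 and 1.62 TPM, against 2.04, 1.57, 0.373, 0.677 and 1.25 TPM in Con and 0.317, 1.06, 0.140, 0.771 and 0.122 TPM in NCAC. The week 2 ranges overlapped in both comparisons, and neither passed (limma adjusted p = 0.329 against Con and 0.121 against NCAC). In the NCAC and Con groups of all weeks, group means of Mmp3 lay between 0.481 TPM (NCAC week 2) and 1.32 TPM (NCAC week 8), so Mmp3 was near the filter of 1 TPM outside CAC. It reached 1 TPM in 26 of the 49 libraries outside CAC weeks 6 and 8, and in all 12 inside them.

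**Figure D2:**
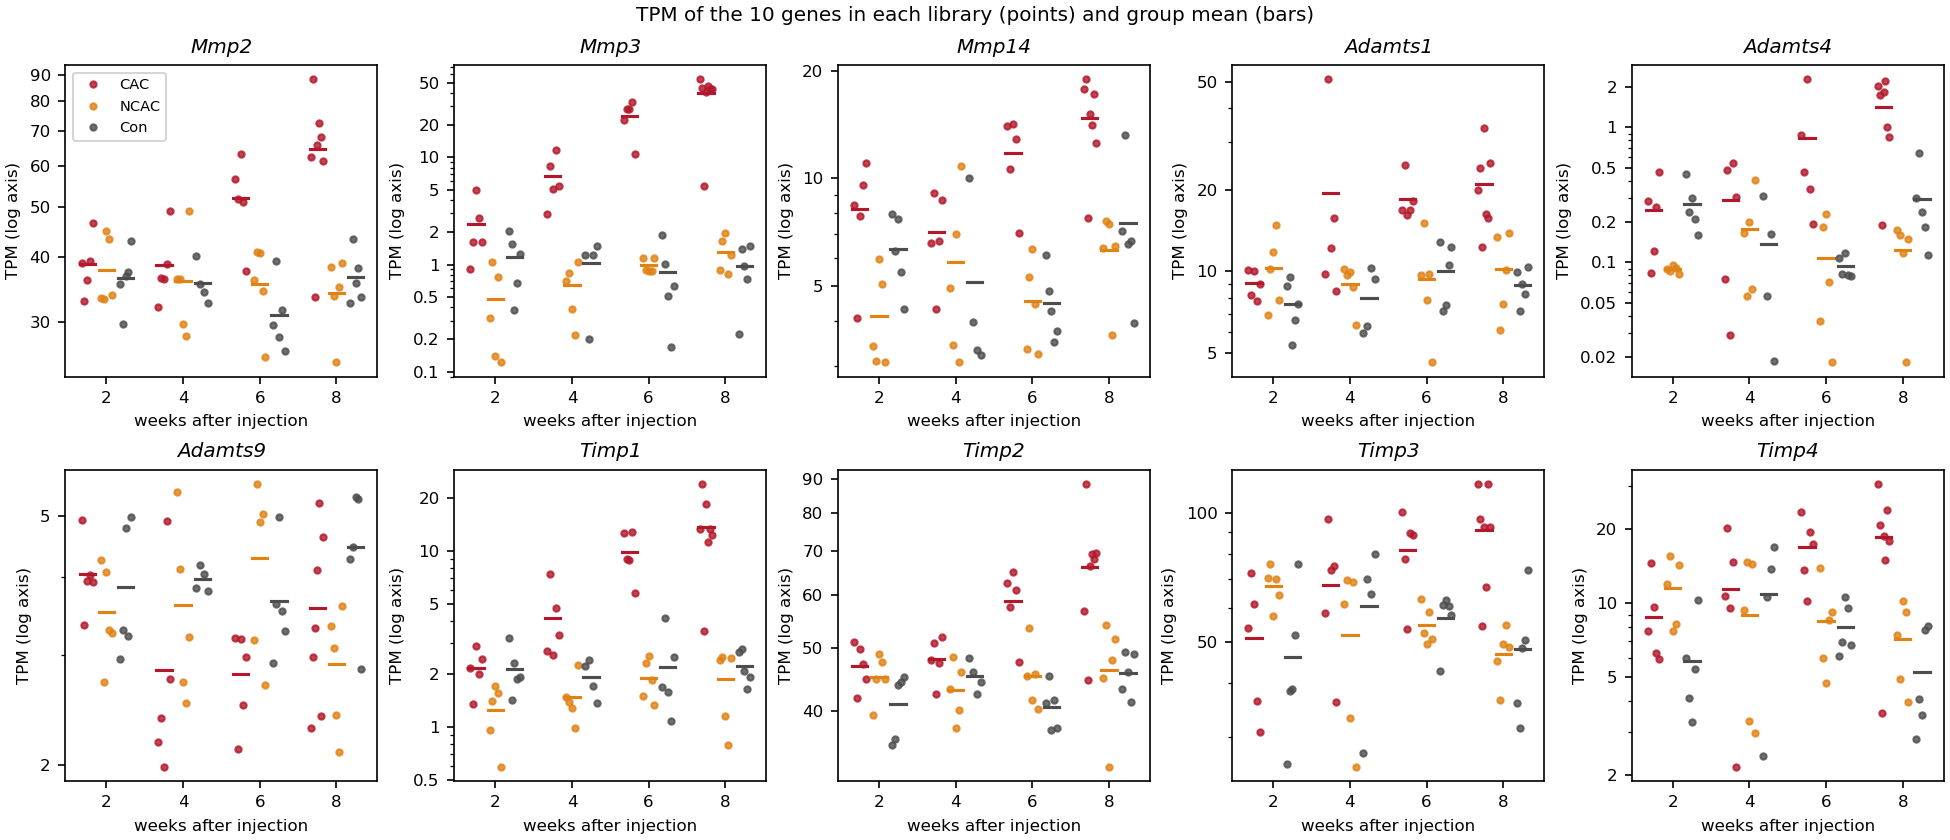
TPM of the 10 genes in each library (points, log axis) by weeks after injection, with group means as bars, for CAC (red), NCAC (orange) and Con (grey). In the Mmp3 and Timp1 panels the CAC points climb from week 4; NCAC means of Mmp3 run from 0.481 TPM at week 2 to 1.32 TPM at week 8, with no call; 1 CAC library of week 8, replicate 3, sits low in most panels.

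Mmp14, the membrane protease that activates MMP2, rose from week 6 (chromosome 14, 54431612 to 54445364, plus strand). At week 6 the CAC libraries had 14.0, 10.6, 14.2, 12.9 and 7.05 TPM and the Con libraries 6.13, 4.86, 4.27, 3.49 and 3.75 TPM. The 2 groups did not overlap, and the log2 difference was 1.20 (SE 0.27, limma adjusted p = 1.96e-04). At week 8 CAC had a lowest of 7.77, a median of 15.1 and a highest of 18.9 TPM, against 7.14, 13.2, 6.57, 6.69 and 3.94 TPM in Con, so 1 Con library, replicate 2, reached into the CAC range. The difference at week 8 was 0.93 (SE 0.25, limma adjusted p = 0.00109) against Con and 1.10 (SE 0.25, limma adjusted p = 1.34e-04) against NCAC, whose range was 3.66 to 7.63 TPM. At week 4 the difference was 0.49 (SE 0.28, limma adjusted p = 0.241), with Con replicate 1 at 10.05 TPM and the other 3 Con libraries at 3.22 to 3.98 TPM. Without that Con library it was 0.81 (limma adjusted p = 0.0486).

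Mmp2, the gelatinase of fibroblasts and other stromal cells, was the most abundant protease of the 10 in every group mean (chromosome 8, 92827291 to 92853420, plus strand). At week 8 CAC had a lowest of 33.5, a median of 65.9 and a highest of 88.2 TPM, Con had 32.6, 43.2, 35.7, 38.0 and 33.5 TPM and NCAC 38.2, 33.6, 25.0, 35.0 and 38.9 TPM. Of the 7 CAC libraries, 6 lay above all Con and NCAC libraries, and replicate 3 lay within their range. The log2 difference was 0.76 (SE 0.15, limma adjusted p = 1.86e-05) against Con and 0.87 (SE 0.15, limma adjusted p = 1.62e-06) against NCAC. At week 6 the CAC mean was 52.1 ± 9.44 TPM, against 30.9 ± 5.08 TPM in Con (SD, n = 5 each), a difference of 0.73 (SE 0.16, limma adjusted p = 1.65e-04). Weeks 2 and 4 gave differences of 0.09 and 0.10, with 95% intervals of -0.23 to 0.40 and -0.24 to 0.44. At week 6 the difference from NCAC was 0.54 (SE 0.16, limma adjusted p = 0.00390), and after rescaling without mitochondrially encoded and haemoglobin genes it was 0.32 (limma adjusted p = 0.0576).

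Adamts1, a protease of aggrecan and versican, was the most abundant of the 3 ADAMTS genes (chromosome 16, 85793827 to 85803113, minus strand). In CAC at week 8 it had a lowest of 12.3, a median of 19.99 and a highest of 33.7 TPM and Con had 9.94, 7.12, 8.97, 8.23 and 10.4 TPM, with every CAC library above every Con library. The log2 difference was 1.09 (SE 0.25, limma adjusted p = 2.42e-04). The NCAC libraries had 13.4, 6.11, 7.61, 10.1 and 13.9 TPM, and the difference from them was 0.97 (SE 0.25, limma adjusted p = 8.84e-04). At week 6 CAC had 16.8, 24.6, 16.1, 16.9 and 18.2 TPM and Con 12.9, 7.14, 7.52, 10.5 and 12.3 TPM, apart but with a difference of 0.84 (SE 0.27, limma adjusted p = 0.00864) that was 0.61 (limma adjusted p = 0.0741) after median-of-ratios rescaling. At week 4 CAC had 9.77, 51.0, 12.2, 15.7 and 8.45 TPM and Con 5.92, 6.27, 10.3 and 9.36 TPM, and the ranges overlapped. Replicate 2 of that CAC group was far above the rest. The week 4 difference of 0.90 (SE 0.29, limma adjusted p = 0.0285) was 0.48 (limma adjusted p = 0.233) without it, and it also missed the threshold without Con replicate 1 (limma adjusted p = 0.0840) or Con replicate 3 (limma adjusted p = 0.0793).

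Adamts4, another aggrecanase, was the scarcest of the 10 genes (chromosome 1, 171250421 to 171260637, plus strand). At week 8 CAC had a lowest of 0.189, a median of 1.75 and a highest of 2.20 TPM, and Con had 0.297, 0.645, 0.236, 0.183 and 0.114 TPM. Of the 7 CAC libraries 6 lay above all Con libraries, and replicate 3 was level with them. The log2 difference was 0.84 (SE 0.16) against Con and 1.03 (SE 0.16) against NCAC, whose libraries had 0.0181 to 0.172 TPM. At week 6 CAC had 0.872, 0.464, 2.27, 0.349 and 0.193 TPM and Con 0.107, 0.0817, 0.118, 0.0811 and 0.0793 TPM, with a difference of 0.64 (SE 0.17), or 0.41 without CAC replicate 3. Since Adamts4 entered the tests through the CAC libraries in which it is high, these differences are a description, and no p-value is given for them. On the log2(TPM + 0.1) scale the week 8 difference from Con was 1.82. The size of its change therefore depends on the pseudocount.

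Adamts9, a protease of versican that also acts in secretion, was the 1 member that did not rise in any comparison (chromosome 6, 92772699 to 92943492, minus strand). The CAC libraries of week 8 had a lowest of 2.29, a median of 3.32 and a highest of 5.25 TPM, Con had 4.27, 4.47, 5.38, 5.33 and 2.85 TPM and NCAC 3.34, 3.08, 2.40, 2.10 and 3.60 TPM. All 3 groups overlapped, and the difference was -0.27 (SE 0.16, limma adjusted p = 0.141) against Con and 0.21 (SE 0.16, limma adjusted p = 0.262) against NCAC. The 95% interval of the difference from Con ran from -0.60 to 0.05. At week 6 CAC had 3.19, 2.12, 3.18, 2.50 and 2.98 TPM and NCAC 3.17, 5.64, 4.89, 5.03 and 2.68 TPM, overlapping, and the gene fell, with a difference of -0.45 (SE 0.18, limma adjusted p = 0.0264). That call was lost in 5 of 10 fits that left out 1 library, with limma adjusted p up to 0.0889. After median-of-ratios rescaling, Adamts9 fell in CAC against Con at week 4, with a log2 difference of -0.50 (limma adjusted p = 0.0449). The week 6 value was -0.48 (limma adjusted p = 0.0193) and the week 8 value -0.44 (limma adjusted p = 0.0135), both calls too.

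Among the inhibitors Timp1, which is scarce in healthy tissue and induced by cytokines, had the largest rise (chromosome X, 20870166 to 20874735, plus strand). In CAC at week 8 it had a lowest of 3.51, a median of 13.3 and a highest of 24.1 TPM, Con had 2.67, 2.78, 2.07, 1.63 and 1.91 TPM and NCAC 2.41, 2.51, 1.14, 0.785 and 2.46 TPM. All 7 CAC libraries were above all Con and NCAC libraries, with replicate 3 nearest to them. The CAC mean was 13.8 ± 6.39 TPM (SD, n = 7) and the Con mean 2.21 ± 0.495 TPM (SD, n = 5), a ratio of 6.22. The log2 difference was 2.06 (SE 0.25, limma adjusted p = 6.89e-10) against Con and 2.27 (SE 0.25, limma adjusted p = 4.37e-11) against NCAC. At week 6 CAC had 12.6, 9.0, 8.91, 12.9 and 5.76 TPM and Con 1.69, 4.18, 1.57, 1.07 and 2.48 TPM, fully apart, with a difference of 1.79 (SE 0.27, limma adjusted p = 2.51e-07).

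At week 4 Timp1 stood at 2.70, 7.42, 2.56, 4.73 and 3.35 TPM in CAC, 1.48, 1.37, 1.28, 0.979 and 2.25 TPM in NCAC and 2.22, 2.40, 1.70 and 1.37 TPM in Con. Every CAC library was above every library of the other 2 groups. The difference from NCAC was 1.00 (SE 0.27, limma adjusted p = 0.00622), and that from Con, 0.75 (SE 0.28, limma adjusted p = 0.0589), missed the threshold. Without CAC replicate 2 the difference from NCAC was 0.80 (limma adjusted p = 0.0518). Without CAC replicate 1 or replicate 3, the difference from Con passed, at 0.85 (limma adjusted p = 0.0410) in the former fit and 0.87 (limma adjusted p = 0.0387) in the latter.

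Timp2, the inhibitor that also takes part in MMP2 activation, had the smallest log2 difference of the 9 genes that rose at week 8 (chromosome 11, 118301069 to 118355740, minus strand). CAC had a lowest of 44.6, a median of 68.1 and a highest of 88.6 TPM, Con had 43.3, 49.2, 45.8, 41.3 and 48.8 TPM and NCAC 45.0, 54.0, 33.0, 47.9 and 51.6 TPM. Of the 7 CAC libraries 6 were above all Con libraries. The difference was 0.50 (SE 0.10, limma adjusted p = 3.33e-05) against Con and 0.50 (SE 0.10, limma adjusted p = 2.92e-05) against NCAC, and after median-of-ratios rescaling 0.28 (limma adjusted p = 0.00138) and 0.22 (limma adjusted p = 0.0116). At week 6 it was 0.52 (SE 0.11, limma adjusted p = 9.84e-05) against Con, or 0.28 (limma adjusted p = 0.00544) after rescaling. Against NCAC at week 6 it was 0.37 (SE 0.11, limma adjusted p = 0.00397), and 0.15 (limma adjusted p = 0.147) after rescaling.

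Timp3, which binds to the matrix, was the most abundant inhibitor in every group mean (chromosome 10, 86300372 to 86349506, plus strand). CAC had a lowest of 54.3, a median of 92.5 and a highest of 117 TPM, and Con had 36.0, 31.5, 48.3, 50.6 and 73.7 TPM, so 5 of 7 CAC libraries were above all Con libraries. The difference was 0.93 (SE 0.25, limma adjusted p = 0.00124) against Con and 0.91 (SE 0.25, limma adjusted p = 0.00126) against NCAC, whose libraries had 45.0, 36.6, 49.5, 54.6 and 48.6 TPM. At week 6 CAC had 101, 78.0, 53.6, 89.5 and 88.6 TPM and Con 42.8, 61.1, 62.6, 60.5 and 57.9 TPM. CAC replicate 3 of that week lay within the Con range and the other 4 above it, and the difference was 0.50 (SE 0.27, limma adjusted p = 0.105), or 0.64 (limma adjusted p = 0.0499) without it. A fit on the compared groups alone gave the week 6 difference a limma adjusted p of 0.0173.

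Timp4, the inhibitor most restricted to heart and vessels among the 4, spread widely within groups (chromosome 6, 115241892 to 115252205, minus strand). At week 8 CAC had a lowest of 3.58, a median of 18.7 and a highest of 30.7 TPM, Con had 2.81, 4.08, 3.52, 7.81 and 8.12 TPM and NCAC 7.43, 4.90, 10.2, 9.18 and 3.96 TPM. Of the CAC libraries 6 were above all Con and NCAC libraries, and replicate 3 was below all NCAC libraries and inside the Con range. The difference was 1.56 (SE 0.39, limma adjusted p = 6.75e-04) against Con, or 1.88 without that library, and 1.16 (SE 0.39, limma adjusted p = 0.00880) against NCAC. The latter was 0.89 (limma adjusted p = 0.0565) after median-of-ratios rescaling. At week 6 CAC had 23.5, 13.6, 10.2, 19.5 and 17.5 TPM and Con 6.08, 6.97, 10.7, 9.56 and 6.75 TPM, with a difference of 0.97 (SE 0.43, limma adjusted p = 0.0496). That call was lost in 8 of 10 fits that left out 1 library, with limma adjusted p up to 0.119.

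Since TPM is scaled by length, levels of the members can be summed within the families. The 4 TIMP genes together stood at 190 ± 43.4 TPM in CAC at week 8 (SD, n = 7), 102 ± 7.38 TPM in NCAC and 101 ± 19.0 TPM in Con (SD, n = 5 each). The 3 MMP genes stood at 119 ± 33.8, 41.8 ± 4.91 and 45.1 ± 7.59 TPM in the same order, and the 3 ADAMTS genes at 26.0 ± 7.86, 13.2 ± 3.81 and 13.7 ± 0.965 TPM. TIMP transcripts outnumbered those of these 3 MMP genes in every group mean. The ratio of summed TIMP to summed MMP at week 8 was 1.66 ± 0.314 in CAC, 2.47 ± 0.295 in NCAC and 2.32 ± 0.686 in Con. Its ranges were 1.22 to 2.27, 2.20 to 2.85 and 1.51 to 3.41, so CAC overlapped both other groups. At week 6 the ratio was 1.99 ± 0.582 in CAC and 3.02 ± 0.466 in Con, with ranges of 1.30 to 2.88 and 2.44 to 3.43. No test was made on these sums.

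The make-up of these sums also differed. At week 8 Mmp3 held 31.5 ± 9.33% of the summed MMP transcripts in CAC, 3.26 ± 1.59% in NCAC and 2.13 ± 1.18% in Con. The CAC range of 11.6 to 40.0% did not overlap the NCAC range of 1.97 to 5.77% or the Con range of 0.559 to 3.8%. Mmp2 held 55.7 ± 7.85% in CAC and 81.7 ± 4.24% in Con. Among the inhibitors Timp1 held 6.94 ± 2.37% in CAC and 2.29 ± 0.830% in Con, Timp2 35.7 ± 6.01% and 46.2 ± 7.77%, Timp3 48.0 ± 4.91% and 46.5 ± 7.52%, and Timp4 9.36 ± 3.18% and 5.07 ± 1.85%. Timp2 and Timp3 thus made up most of the inhibitor transcripts in both groups.

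**Figure D3:**
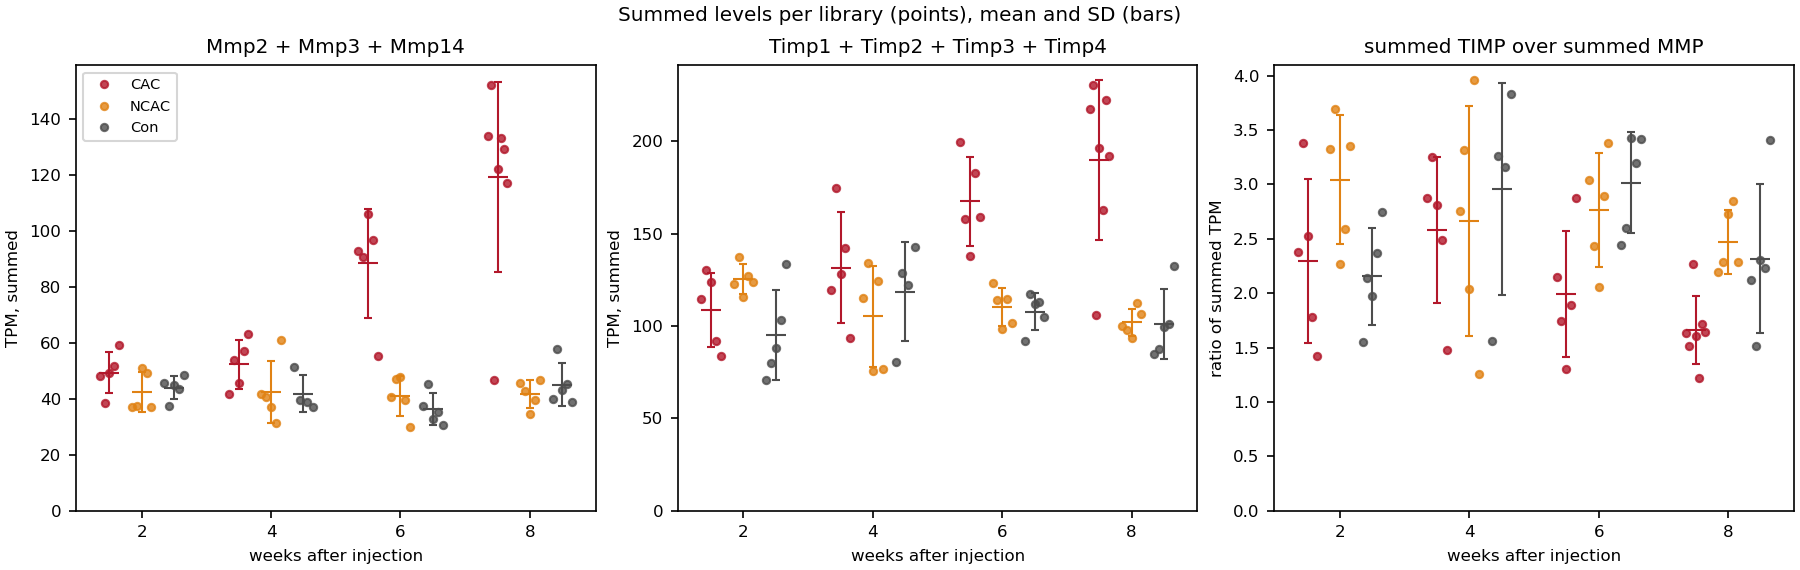
Summed TPM of the 3 MMP genes and of the 4 TIMP genes, and the ratio of the 2 sums, in each library (points) by weeks after injection, with group means and SD as bars. At week 6 both sums of all 5 CAC libraries lie above all NCAC and Con libraries, at week 8 those of 6 of the 7 do, and the ratio overlaps between the arms at every week.

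Within the CAC arm, Mmp3 and Timp1 rose from week 4 to week 6, by log2 differences of 1.76 (SE 0.35, limma adjusted p = 0.00221) and 1.10 (SE 0.27, limma adjusted p = 0.0115), and no other member passed (5.22% of all genes were called, 4.67% higher). From week 2 to week 4, 0 of 10 members passed (1.63% called), and Mmp3 differed by 1.19 (SE 0.35, limma adjusted p = 0.0640). There, 4 members and 1978 of the 12541 genes tested had an unadjusted p below 0.05. From week 6 to week 8, 0 of 10 passed (1.74% called), while 1 member and 2091 of the 12541 genes tested had an unadjusted p below 0.05. The difference between CAC and Con was larger at week 8 than at week 2 for 4 members (26.5% of all genes were called, 19.1% with a larger difference at week 8), or for 3 of 9 without Adamts4. For Mmp3 this change in the difference was 3.63 (SE 0.48, limma adjusted p = 4.74e-07), for Timp1 2.05 (SE 0.36, limma adjusted p = 3.51e-05) and for Mmp2 0.68 (SE 0.22, limma adjusted p = 0.0163). For Adamts4 it was 0.87 (SE 0.24), a description only. For Timp4 it was 1.02 (SE 0.58, limma adjusted p = 0.191) and for Mmp14 0.64 (SE 0.36, limma adjusted p = 0.189), both short of the threshold. Between adjacent weeks 0 of 10 members passed, for week 6 minus week 4 (0.0797% of all genes called) or week 8 minus week 6 (0.152% called). An unadjusted p below 0.05 was reached by 4 members and 2171 of the 12541 genes tested for the former. For the latter it was reached by 0 members and 981 genes.

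In NCAC and in Con, week 8 was compared with week 2 alone. In NCAC, 0 of 10 members passed and 0 had an unadjusted p below 0.05 (0% of all genes called). In Con, 0 of 10 members passed and 0 had an unadjusted p below 0.05 (1.36% of all genes called). The 2 arms differed over all genes, however. In Con, 2138 of the 12541 genes tested had an unadjusted p below 0.05, and in NCAC fewer did. At week 2 the log2 difference of NCAC from Con was 0.92 (SE 0.43, limma adjusted p = 0.597) for Timp4 and 0.62 (SE 0.27, limma adjusted p = 0.564) for Timp3, neither past the threshold. In those libraries Timp4 stood at 12, 15.6, 7.69, 8.28 and 14.3 TPM in NCAC and 5.99, 4.12, 3.28, 5.41 and 10.4 TPM in Con, and the ranges overlapped. For Mmp3, NCAC against Con at week 8 gave 0.26 (SE 0.35, limma adjusted p = 0.769), with a 95% interval of -0.45 to 0.97. For Timp1 it gave -0.21 (SE 0.27, limma adjusted p = 0.750), with an interval of -0.74 to 0.32.

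Several members varied together between hearts of a group, though whether they did so more than other genes was not examined. CAC week 8 replicate 3 was the lowest of its 7 libraries in 9 of the 10 genes, all but Adamts9. Its macrophage and monocyte marker sum, 474 TPM, was also the lowest of the group, while its neutrophil marker sum was not. CAC week 6 replicate 5 and CAC week 2 replicate 2 were each the lowest of their 5 libraries in 6 genes. NCAC week 6 replicate 5 was the lowest of its 5 in 7 genes. To describe such variation, each library's log2(TPM + 1) was taken as its deviation from the mean of its own group, and the deviations of each pair of members were correlated over the 61 libraries. Of 45 pairs, 15 had a positive and 2 a negative correlation with a permutation p, adjusted by Benjamini-Hochberg over the pairs, below 0.05 (100000 permutations within groups). The positive pairs include those of Adamts4 with Mmp2, Mmp3, Mmp14 and Timp1, which are a description only. All these relations were chosen after the data were seen. The same counts over all genes tested were not made, so they cannot be read as particular to the members.

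The closest pair was Timp3 and Timp4, with r = 0.84 (permutation p = 1.00e-05, adjusted p = 9.00e-05) and Spearman's rho = 0.84 (permutation p = 1.00e-05). Their r was 0.80 without the 2 libraries farthest from the median of Timp3, and 0.68, 0.96, 0.77 and 0.79 within weeks 2, 4, 6 and 8. The next was Mmp2 and Timp2, with r = 0.77 (permutation p = 1.00e-05, adjusted p = 9.00e-05) and Spearman's rho = 0.69 (permutation p = 1.00e-05), and r = 0.67 without the 2 farthest libraries. Timp3 and Mmp14 deviated in opposite directions, with r = -0.58 (permutation p = 1.00e-04, adjusted p = 5.00e-04) and Spearman's rho = -0.53 (permutation p = 1.20e-04). For that pair r was -0.48 without the 2 libraries farthest from the median, -0.85 over the NCAC and Con libraries alone, and weakest within week 8, at -0.13. Con week 4 replicate 1 shows it, with the highest Mmp14 of its group and the lowest Timp3 (27.6 TPM) and Timp4 (2.40 TPM). Mmp3 and Timp1 had r = 0.58 (permutation p = 0.00183, adjusted p = 0.00749) and Spearman's rho = 0.39 (permutation p = 0.00542). Their r was 0.33 without the 2 libraries farthest from the median of Mmp3, and 0.15 over the NCAC and Con libraries, where Mmp3 was near 1 TPM. The smallest p the permutations can give is 1e-05, and all members of a library share its RNA and its scaling.

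**Figure D4:**
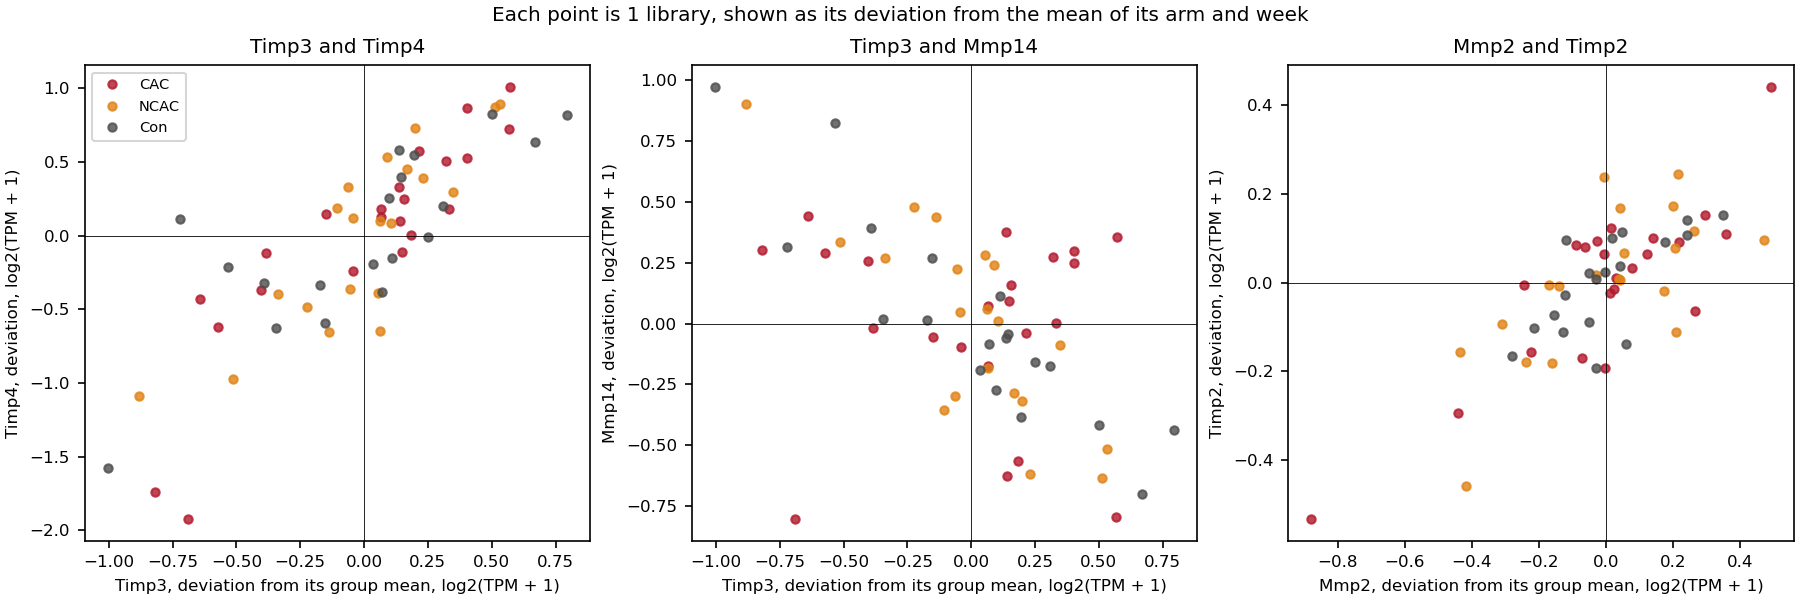
Deviation of each library from the mean of its arm and week, in log2(TPM + 1), for Timp3 against Timp4, Timp3 against Mmp14 and Mmp2 against Timp2; each point is 1 of 61 libraries, coloured by arm. Timp4 is high where Timp3 is high in all 3 arms, Mmp14 is mostly low where Timp3 is high, and Timp2 is high where Mmp2 is high.

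Markers of cell types did not all move in the same direction as the members. In CAC against Con at week 8, 9 of 10 macrophage and monocyte markers were higher, with the scavenger receptor gene Cd163 at 2.54, Mrc1 at 2.25, C1qc at 1.69 and Csf1r at 1.06 on the log2 scale. Their summed level was 474 to 968 TPM in CAC and 221 to 320 TPM in Con. At week 6 the sums were 453 to 754 and 204 to 330 TPM, and all 10 markers were higher. All 5 neutrophil markers tested (Retnlg, Cxcr2, Csf3r, S100a8 and S100a9) were higher at week 8, with sums of 17.5 to 45.6 and 6.69 to 21.3 TPM, while the defining marker Ly6g was at 0 in 34 libraries. Of 7 fibroblast markers 3 were higher (Pdgfra, Dpt and Gsn) and 0 lower, with sums of 950 to 1201 and 838 to 1076 TPM. Of 8 mural markers 1 was higher (Cspg4) and 2 lower (Acta2 and Rgs5), and of 6 endothelial markers 0 were higher and 2 lower (Kdr and Cdh5). Of 6 cardiomyocyte markers 1 was higher (Tnnt2) and 4 lower (Myh6, Actc1, Myl2 and Tnni3). Melanocyte genes gave no uniform sign: Mlana was higher, Dct lower, and Tyr and Tyrp1 were at 0 in 58 and 57 libraries. Over the 61 libraries the medians of Cxcr2, Retnlg and Mlana were 0.290, 0.752 and 0.349 TPM, below the filter of 1 TPM. The same held for the macrophage and monocyte marker Ccr2, at 0.799 TPM. Which groups carried these genes past the filter was not examined, so their calls are a description. These counts are to be read against all genes tested, of which 50.8% were called higher and 60.8% in either direction at week 8, and 50.5% higher at week 6. After median-of-ratios rescaling Gsn differed by 0.0145 (limma adjusted p = 0.889) and S100a9 by 0.92 (limma adjusted p = 0.0514) at week 8, neither called. There, 25.9% of all genes were called higher and 25.8% lower. The part of these cell types in the members' changes was not tested.

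The same deviations were set against those of the marker sums and of the mitochondrially encoded share, 80 relations in all, of which 26 had an adjusted permutation p below 0.05. Timp2 went with the macrophage and monocyte sum, r = 0.73 (permutation p = 1.00e-05, adjusted p = 1.14e-04, Spearman's rho = 0.60 with permutation p = 1.00e-05, r = 0.62 without the 2 farthest libraries). It also went with the fibroblast sum, r = 0.70 (permutation p = 1.00e-05, adjusted p = 1.14e-04, Spearman's rho = 0.69 with permutation p = 1.00e-05, r = 0.61 without the 2 farthest libraries), and against the mitochondrially encoded share, r = -0.60 (permutation p = 1.00e-05, adjusted p = 1.14e-04, Spearman's rho = -0.59 with permutation p = 4.00e-05, r = -0.60 without the 2 farthest libraries). Timp1 went with the macrophage and monocyte sum, r = 0.63 (permutation p = 1.00e-05, adjusted p = 1.14e-04, Spearman's rho = 0.53 with permutation p = 7.00e-05, r = 0.52 without the 2 farthest libraries). Timp1 also went with the fibroblast sum, r = 0.37 (permutation p = 0.00379, adjusted p = 0.0178), and the endothelial sum, r = 0.32 (permutation p = 0.0148, adjusted p = 0.0473). Against the mitochondrially encoded share its r was -0.42 (permutation p = 0.00165, adjusted p = 0.00943). Mmp2 went with the fibroblast sum, r = 0.72 (permutation p = 1.00e-05, adjusted p = 1.14e-04, Spearman's rho = 0.66 with permutation p = 1.00e-05, r = 0.68 without the 2 farthest libraries), and against the mitochondrially encoded share, r = -0.65 (permutation p = 1.00e-05, adjusted p = 1.14e-04, Spearman's rho = -0.66 with permutation p = 1.00e-05, r = -0.66 without the 2 farthest libraries). Mmp2 also went with the endothelial sum, r = 0.64 (permutation p = 1.00e-05, adjusted p = 1.14e-04, Spearman's rho = 0.66 with permutation p = 1.00e-05, r = 0.61 without the 2 farthest libraries). With the macrophage and monocyte sum its r was 0.60 (permutation p = 8.00e-05, adjusted p = 7.11e-04, Spearman's rho = 0.44 with permutation p = 0.00139, r = 0.45 without the 2 farthest libraries). Timp3 went against the neutrophil sum, r = -0.55 (permutation p = 1.50e-04, adjusted p = 0.00120, Spearman's rho = -0.52 with permutation p = 2.00e-04, r = -0.44 without the 2 farthest libraries), though within week 6 its r was 0.02. Timp3 also went against the endothelial sum, r = -0.45 (permutation p = 0.00200, adjusted p = 0.0107, Spearman's rho = -0.40 with permutation p = 0.00631, r = -0.37 without the 2 farthest libraries), though within week 8 its r was 0.006. Timp4 went against the neutrophil sum, r = -0.45 (adjusted permutation p = 0.00462). With the endothelial sum its r was -0.43 (adjusted permutation p = 0.0175), but 0.02 within week 8. Timp2 also passed with the mural sum, r = 0.38, and the endothelial sum, r = 0.36, and Adamts9 with the macrophage and monocyte sum, r = 0.34. For Mmp3 and the macrophage and monocyte sum, r = 0.38 (permutation p = 0.0230, adjusted p = 0.0665, Spearman's rho = 0.20 with permutation p = 0.142, r = 0.25 without the 2 farthest libraries), the relation missed the threshold. Mmp3 went against the cardiomyocyte sum, r = -0.45 (adjusted permutation p = 0.0278). Mmp14 went with the endothelial sum, r = 0.57 (adjusted permutation p = 0.0003), and the neutrophil sum, r = 0.46 (adjusted permutation p = 0.0046). Against the mitochondrially encoded share its r was -0.38 (adjusted permutation p = 0.0287). Adamts4, a description only, went with the endothelial, macrophage and monocyte, and fibroblast sums and against that share.

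The wider protease network was described by lists of related genes, whose counts are to be read against all genes tested, of which 50.8% were called higher and 60.8% in either direction at week 8. In CAC against Con at that week, 5 of 18 other matrix metalloproteinases were tested, of which 2 rose, 1 fell and 2 were not called. Mmp19 stood at 7.44 ± 2.69 TPM in CAC hearts and 1.53 ± 0.316 TPM in Con hearts, a log2 difference of 1.66, and Mmp23 differed by 0.62. Mmp15, a membrane protease related to Mmp14, fell, with 18.7 ± 7.67 TPM in CAC hearts and 47.1 ± 8.35 TPM in Con hearts, a log2 difference of -1.35. The other 13, among them the neutrophil collagenase Mmp8 and the gelatinase Mmp9, did not pass the filter on low values. Of 16 other ADAMTS genes 9 were tested, 5 rose and 2 fell. Adamts15 had the largest rise, with 13.3 ± 6.53 TPM in CAC hearts and 2.08 ± 1.10 TPM in Con hearts and a log2 difference of 2.10. Adamts2, which processes procollagen, rose by 0.59, and Adamts19 fell by 0.50 on the log2 scale. The rise of Adamts5, 0.33, was 0.14 (limma adjusted p = 0.206) after rescaling. The list medians were 0.15 for the MMP genes and 0.33 for the ADAMTS genes, beside 0.19 for all genes. After median-of-ratios rescaling 2 other MMP genes rose and 2 fell, and 3 other ADAMTS genes rose and 2 fell.

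Among 5 ADAM sheddases tested of 7, 2 rose and 1 fell: Adam9 and Adam15 rose by 0.65 and 0.59, and Adam17, which releases TNF, differed by -0.24. In the plasminogen system 2 of 6 tested genes rose and 0 fell. Serpine2, an inhibitor of thrombin and plasminogen activators, stood at 16.1 ± 5.75 TPM in CAC hearts and 6.40 ± 0.614 TPM in Con hearts, a log2 difference of 1.15, and the plasminogen receptor gene Plgrkt differed by 0.24, while Plau and Plat were not called, at -0.27 and -0.23. Of 13 other inhibitors and activators tested, 7 rose and 3 fell. Sfrp1 rose by 1.38, the serine protease gene Htra3 by 1.37 and the procollagen C-proteinase enhancer Pcolce by 0.88, while Htra1 differed by -0.73. Of 8 cysteine cathepsins and cystatins 6 rose and 1 fell, with Ctss at 58.7 ± 19.9 TPM in CAC hearts and 15.0 ± 4.44 TPM in Con hearts, Ctsb at 290 ± 43.0 TPM in CAC hearts and 177 ± 8.50 TPM in Con hearts, Ctsz higher by 0.96 and Ctsh by 0.86. After rescaling, 2 ADAM genes rose and 2 fell, 1 gene of the plasminogen system rose and 2 fell, 6 of the other inhibitors and activators rose and 5 fell, and the counts of cathepsins and cystatins stayed at 6 and 1.

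Matrix proteins that these enzymes cleave did not move as one. Of 9 proteoglycan and hyaluronan genes tested, 1 rose and 2 fell at week 8 (1 and 3 after rescaling). Decorin (Dcn) rose, with 934 ± 213 TPM in CAC hearts and 365 ± 18.6 TPM in Con hearts, while Ogn and the perlecan gene Hspg2 differed by -0.41 and -0.35, and versican (Vcan), a substrate of the ADAMTS genes, by -0.08, which was not called. Of 23 fibrillar and basement membrane genes, 6 rose, 2 fell and 15 were not called, with a median of -0.02 beside 0.19 for all genes. After median-of-ratios rescaling 5 rose and 11 fell. Thbs4 rose by 1.83, elastin (Eln) by 1.10 and the fibulin genes Fbln1 and Fbln5 by 0.87 and 0.78. The fibrillar collagen genes Col1a1 and Col3a1, at -0.17 and -0.03, were not called.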

How the data were processed

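Whole-heart RNA was extracted with Trizol and sequenced from stranded mRNA libraries on a NovaSeq instrument, per the labels' protocols. The submitters' processing notes name the mouse build mm10; the aligner, counting tool and annotation are not given in the sources used here. TPM values per gene symbol and library were deposited by the authors, so tools for counts were not used. The members and all lists were chosen with earlier results of these data known.

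The analysis used log2(TPM + 1) of the 12541 genes that reached 1 TPM in 5 or more of 61 libraries. Means of the 12 groups were fitted in 1 model with limma 3.58.1 (limma-trend, with R 4.3.3), with Benjamini-Hochberg adjustment within each comparison and a threshold of 0.05. The fit was tested on simulated data. Replicates are as labelled, and a p-value covers the spread among these libraries alone. Con week 4 replicate 2, with 89.1% mitochondrially encoded TPM, was left out. Every member is named in the comparisons described. From the other lists, in CAC against Con at week 8, every called gene was named where 5 or fewer were called, otherwise the 4 with the smallest p; Plau, Plat, Vcan, Col1a1, Col3a1, Mmp8 and Mmp9 were chosen after their values were seen. Alternatives were median-of-ratios rescaling (14527 genes), a rescaling that omits 41 mitochondrially encoded and haemoglobin genes, a pseudocount of 0.1, no filter (23360 genes), a filter of 5 TPM (8788 genes), the left-out library kept, only the groups compared, a replicate block and leaving out each library. Correlations and figures used Python 3.11.15, numpy 2.4.6, pandas 2.3.3, scipy 1.17.1 and matplotlib 3.10.9. Coordinates come from GENCODE M21, promoters from RefSeq. A gene that the rules would name is not reported here.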

Additional observations from a re-analysis of the deposited data

Results flagged for a closer look

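In 6 of 120 groups of libraries (10 genes in 12 groups), 1 library stood far from the rest of its group, and chance gives about 1 in 20. Mmp3 in CAC week 8 replicate 3 was at 5.42 TPM, and the other 6 libraries at 41.0 to 53.5 TPM. Mmp14 in Con week 4 replicate 1 was at 10.05 TPM, and the other 3 libraries at 3.22 to 3.98 TPM. Adamts1 in CAC week 4 replicate 2 was at 51.0 TPM, and the other 4 libraries at 8.45 to 15.7 TPM, and Adamts1 in CAC week 6 replicate 2 was at 24.6 TPM, and the other 4 libraries at 16.1 to 18.2 TPM. Adamts9 in CAC week 4 replicate 4 was at 4.91 TPM, and the other 4 libraries at 1.99 to 2.75 TPM, and Timp3 in Con week 6 replicate 1 was at 42.8 TPM, and the other 4 libraries at 57.9 to 62.6 TPM.

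The difference between CAC and Con changed from week 2 to week 8 for 4 members by the interaction test of limma, or for 3 of 9 without Adamts4. Of all genes tested, 26.5% were called in this test, 19.1% with a larger difference at week 8. The change was 3.63 (SE 0.48, limma adjusted p = 4.74e-07) for Mmp3 and 2.05 (SE 0.36, limma adjusted p = 3.51e-05) for Timp1. For Mmp2 it was 0.68 (SE 0.22, limma adjusted p = 0.0163). For Adamts4, which reached 1 TPM only in CAC libraries of weeks 6 and 8, it was 0.87 (SE 0.24), a description.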

How the results depend on the processing

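Of 120 results (10 genes in 12 comparisons of arms, 38 called), none changed sign while called under any alternative run. The 38 include Adamts4 in both CAC comparisons at weeks 6 and 8, a description only. The call changed for 7 under median-of-ratios rescaling, 8 under rescaling without mitochondrially encoded and haemoglobin genes, 7 with Con week 4 replicate 2 kept, 4 with only the groups compared, 2 each with a pseudocount of 0.1 or no filter, and 0 under the filter of 5 TPM. The number of members called in CAC against Con at week 4, 2 in the reported fit, was 1 without the filter, 1 with only the groups compared, 1 under rescaling without mitochondrially encoded and haemoglobin genes and 5 with Con week 4 replicate 2 kept. For CAC against NCAC it was 1 instead of 0 at week 2 with a pseudocount of 0.1 (Mmp3) and 5 instead of 8 at week 6 with that library kept. For NCAC against Con at week 8 it was 1 instead of 0 under rescaling without mitochondrially encoded and haemoglobin genes (Adamts9). Leaving out 1 library gave 1 to 3 calls in either CAC comparison at week 4, 7 to 9 against Con and 7 to 10 against NCAC at week 6, 9 to 10 and 9 at week 8, and 0 in NCAC against Con. The causes were not tested. The replicate block changed none of the 120 calls, and gave the same counts, 9 of 10 in CAC against Con at week 8. Libraries with the same number did not deviate together across groups (median r = -0.01, lowest -0.37), so the numbers were not taken as pairs. Read depth is not given, so no counting error stands behind the TPM of Adamts4 or of Mmp3 outside CAC.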

Other observations

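Genes with the most similar pattern over the 12 group means of log2(TPM + 1) were taken from 11717 tested genes, as the 3 with the highest Pearson r per member. For Mmp3 they were Cpne8, Ccr1 and Serpinb6a, with r from 0.995 to 0.997, and 3291 genes had r above 0.9. For Timp1 they were Eps8, Adora2b and Selp (0.989 to 0.990, 2723 genes above 0.9), for Mmp2 Cfl1, Slc7a7 and Uba2 (2225 genes) and for Timp2 Itm2c, Tpp1 and Porcn (2463 genes). Mmp14 was most like Cnot2, Dtx4 and Btbd19 (1119 genes), Adamts1 like Trim54, Crbn and Sirt1 (1994 genes) and Adamts4 like Efemp2, Ctsz and Rhoj (1859 genes). Fewer genes followed Timp3 (Cipc, Nampt and Adh1, 183 genes above 0.9) and Timp4 (Avpr1a and Fam46b among them, 105 genes). Adamts9 had 1 such gene, Pla2g6, with r = 0.901. All 12 means share the CAC rise over the weeks, so these values are a description.

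The library left out, Con week 4 replicate 2, had lower values of the abundant stromal members: Mmp2 was at 9.53 TPM, against 32.5 to 40.2 TPM in the other 4 Con libraries, Timp2 at 9.46 TPM, against 42.5 to 48.2 TPM in the other 4 Con libraries and Timp3 at 18.3 TPM, against 27.6 to 80.1 TPM in the other 4 Con libraries. Timp1 was at 1.71 TPM, against 1.37 to 2.40 TPM in the other 4 Con libraries, and Mmp3 at 0.444 TPM, against 0.202 to 1.5 TPM in the other 4 Con libraries, both inside that range. Adamts1, Adamts4 and Timp4 were inside their ranges too.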
